A study of Danio rerio with 24 samples.

Results

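The annexins, galectins and S100 proteins are 3 families of small binding proteins that blood cells carry in and under their membranes. Their genes were described here across the cell classes of the zebrafish whole kidney marrow (WKM) and across 3 *ikzf1* genotypes. Members were all gene rows whose name begins with anxa, lgals, s100 or icn, without the lgals3bp genes, which encode another kind of protein. The name table lists 46 such names, and 32 of them had a row among the 23981 genes measured: 13 annexins, 11 galectins and 8 S100 genes including *icn*. The other 14 were not analysed here. The rule used gene names and no measured value, but it was set with earlier results of these data known.

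Annexins bind the phospholipids of membranes when calcium is present. Galectins bind the galactose-containing sugars of glycoproteins and act both inside and outside cells. S100 proteins are small calcium sensors of the EF-hand kind, and S100A10, an exception that no longer responds to calcium, pairs in mammals with annexin A2 under the plasma membrane. In mammals neutrophils and macrophages are rich in several of these proteins, which take part in granule release, phagocytosis and the clearance of dying cells. The WKM is the tissue in which adult zebrafish make their blood.

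The marrow came from adult fish of 3 months, in 8 libraries of single cells per genotype. Wild-type fish carried an intact *ikzf1*, the gene of the zinc-finger transcription factor Ikaros. Fish of the line IT325 were homozygous for a chemically induced nonsense mutation, and their product keeps the DNA-binding fingers but not the C-terminal ones through which Ikaros proteins pair. Fish of the line fr105 were homozygous for a CRISPR/Cas9 deletion that shifts the reading frame. Their product keeps only the first DNA-binding finger, so it lacks the C-terminal fingers as well. No group was treated, and each genotype has 4 libraries marked P1 and 4 marked P2, terms that the labels do not explain. Neither the labels nor the methods name the fish behind a library, so p-values measure the spread between these libraries, which may in part be technical.

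A barcode counted as a cell once it held 1500 transcripts or more, the minimum the study used. That left 345 wild-type, 359 IT325 and 304 fr105 cells, 22 to 56 per library. The paper analysed fewer cells of each genotype at this minimum, with the larger gaps in the mutants, so its set of cells is not the same. The depth of a library over its cells was 88891 to 332986 transcripts for wild-type, 277521 to 519252 for IT325 and 86165 to 351724 for fr105, so IT325 was measured most deeply. Cell classes were rebuilt from marker genes after clustering without the 32 members, and a class is called "-like" because it rests on those markers. Of the 1008 cells 515 were neutrophil-like and 96 erythroid-like, 63 matched progenitors, 52 macrophages, 76 the kidney tubule, 41 B cells and 23 T cells, and 142 stayed unnamed. The 23 T cell-like cells were all wild-type, as were 37 of the 41 B cell-like cells. An unnamed cluster of 21 cells, 18 of them IT325, passed 6 of 11 T cell markers and 4 innate lymphocyte markers. The absence of T cell-like cells in IT325 therefore does not mean that its marrow had no T-lineage cells, which the paper reports there. The macrophage-like class had 23 wild-type, 12 IT325 and 17 fr105 cells. It had 21, 3 and 15 at a finer clustering (resolution 2), and 21, 3 and 16 with the members used in clustering. All IT325 values of this class therefore depend on the clustering. *ikzf1* itself was measured at 25.3 to 85.0 CPM (transcripts scaled to 1000000 per library) in wild-type libraries, at 104 to 206 in IT325 and at 102 to 183 in fr105. Transcripts are counted near their 3′ end, which both mutant messages can still carry, so this is no check of the labels.

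Levels are given as CPM, the count of a gene's transcripts scaled to 1000000 transcripts of all genes in the same cells. They are not scaled by length, because each transcript is counted once at its 3′ end. The marrow used few members heavily. *icn* (ENSDARG00000009978), which encodes ictacalcin, an S100 protein of fish known from epithelia, gave 12551 of the members' transcripts and was found in 736 of the 1008 cells. *s100a10b* (ENSDARG00000025254) followed with 2794 transcripts, *anxa4* (ENSDARG00000036456) with 1425 and *anxa2a* (ENSDARG00000003216) with 1350. In all 20 members reached 20 transcripts, and the other 12 had 0 to 17 in all cells together. Among these scarce ones were *anxa2b* with 1 transcript beside *anxa2a*, *anxa5a* with 6 beside *anxa5b*, and *s100a10a* with 11 beside *s100a10b*, so in each of these 3 pairs 1 copy held nearly all transcripts.

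**Figure D1:**
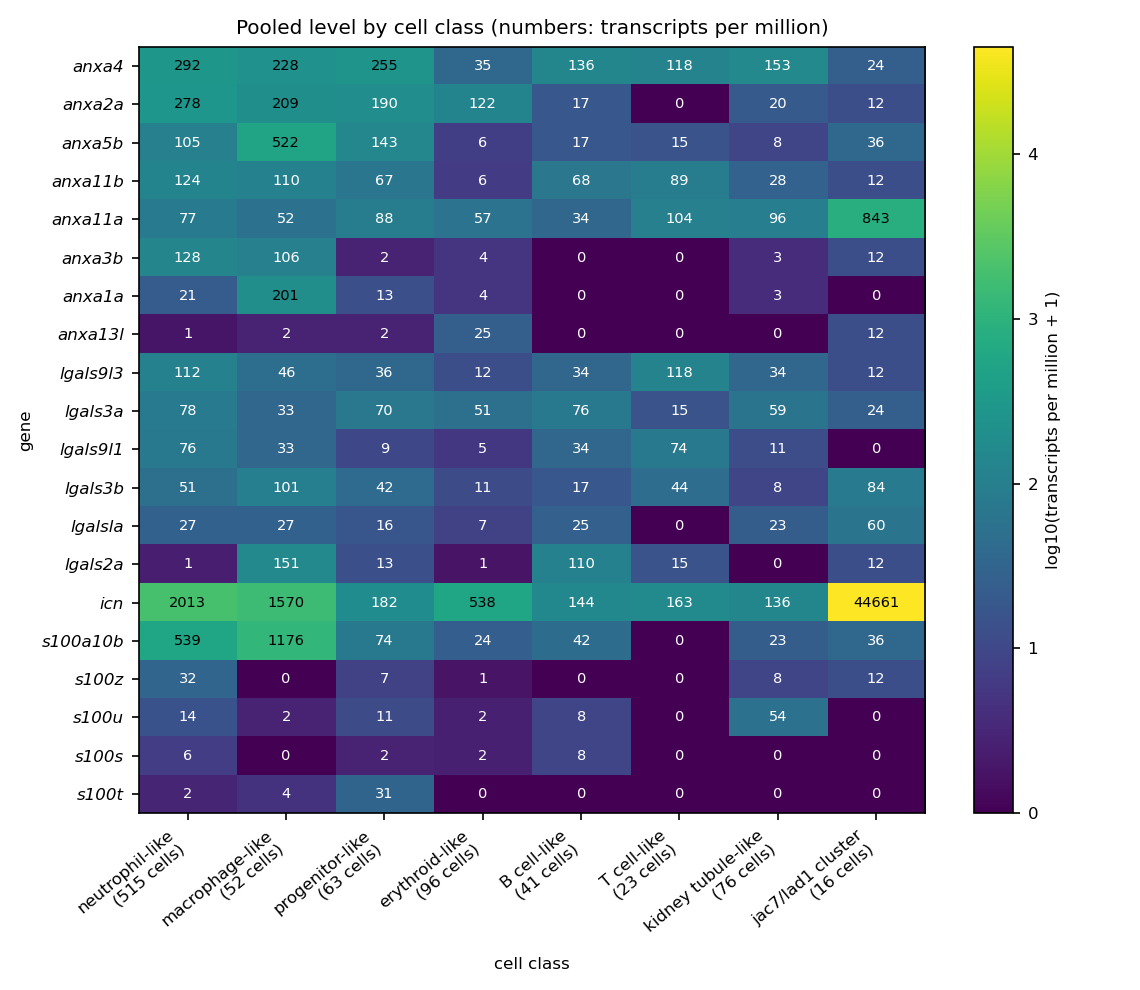
Level of the 20 members with at least 20 transcripts (rows, by family) in 7 cell classes and in the cluster led by jac7 and lad1 (columns, with their number of cells), pooled over genotypes in CPM; colour is log10 of the level plus 1. Neutrophil-like and macrophage-like cells hold most of the high values. The jac7/lad1 cluster stands out for icn at 44661, with 1630 of 3708 transcripts in a single cell, and for anxa11a at 843.

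Pooled over genotypes, 8 of the 20 members were highest in neutrophil-like cells and 6 in macrophage-like cells. These class levels are a description, since genotypes contribute unequally to the classes. How many of all genes are highest in each class was not counted, so the split is no result about the members. Some ranks are near ties or rest on few transcripts. *lgalsla* had 27.07 CPM in macrophage-like and 27.01 in neutrophil-like cells, and *s100s* led in B cell-like cells with 1 transcript. Neutrophil-like cells had 2013 CPM of *icn*, 292 of *anxa4*, 278 of *anxa2a*, 128 of *anxa3b* (ENSDARG00000044254) and 124 of *anxa11b* (ENSDARG00000002632). In mammals annexin A3 is an abundant protein of neutrophil granules, and here *anxa3b* lay at 106.4 CPM in macrophage-like cells (80.1 to 138), at 1.81 to 3.98 CPM in progenitor-like, erythroid-like and kidney tubule-like cells, and at 0 in B cell-like and T cell-like cells. Of its 506 transcripts 86.8% were in neutrophil-like cells.

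Macrophage-like cells led for *s100a10b* at 1176 CPM and for *anxa5b* (ENSDARG00000016470) at 522; annexin A5 is known for binding phosphatidylserine on dying cells. Both genes were also present in neutrophil-like cells, at 539 and 104.9 CPM. A pair of members that the naming rule does not cover were singled out after their values were seen because they were highest in macrophage-like cells. They are *anxa1a*, whose mammalian counterpart restrains inflammation, at 201 CPM, and the galectin gene *lgals2a* at 151. In neutrophil-like cells *anxa1a* stood at 21.5 CPM, with 74 of its 194 transcripts, and *lgals2a* at 1.45 CPM. The 110 CPM of *lgals2a* in B cell-like cells rest on 13 transcripts in 2 of 41 cells. Erythroid-like cells were low in most members and led for *anxa13l* alone, with 24.7 CPM and 31 of its 37 transcripts. B cell-like and T cell-like cells had no member above 163 CPM.

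One small cluster was kept apart from every class. Its 16 cells came from all 8 IT325 libraries and from no other genotype, and its leading genes are *jac7* and *lad1*. It passed 5 of 10 erythroid markers, enough for an erythroid-like name under the rule used. It was left unnamed because none of these is among its 10 leading genes, an exception made after its values were seen. The progenitor-like cluster 4 and the kidney tubule-like cluster 11 also had no marker of their class there and kept their names. The levels of *icn* and *anxa11a* in erythroid-like cells depend on this choice. All 16 cells held *icn*, which made up 0.644% to 12.1% of a cell's transcripts with a median of 1.79%. The median over all other cells was 0.0642%, and 5 of them reached the lowest value of the cluster. With 3708 of 83026 transcripts, *icn* stood at 44661 CPM (exact Poisson 95% interval 43235 to 46122, which covers counting error only). A single cell held 1630 of these 3708 transcripts, so the pooled level lies above the median cell's 1.79%. *anxa11a* (ENSDARG00000077383), whose mammalian counterpart tethers RNA granules to lysosomes, was found in 15 of the 16 cells at 843 CPM (657 to 1065), against 33.9 to 104 in the named classes. These 16 cells were 4.46% of the IT325 cells and held 52.6% of the IT325 *icn* and 25.9% of the IT325 *anxa11a* transcripts.

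**Figure D2:**
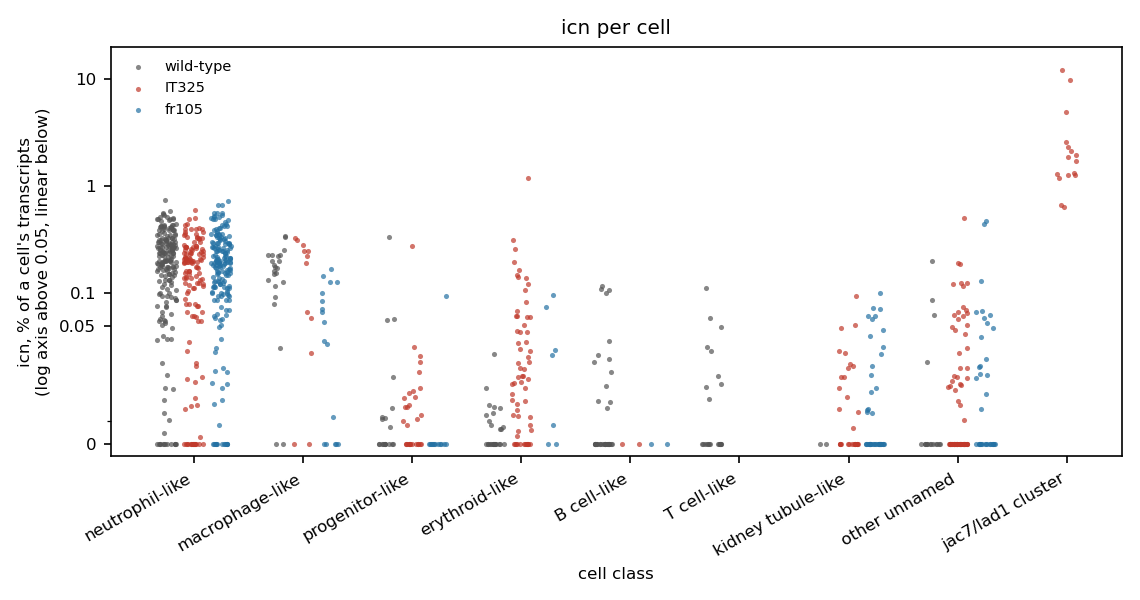
Share of icn among the transcripts of each of the 1008 cells (y axis, in %, logarithmic above 0.05 and linear below), by cell class and genotype (1 point per cell). Neutrophil-like and macrophage-like cells of each genotype carry icn, and the 16 cells of the jac7/lad1 cluster, all from IT325, lie at 0.644% to 12.1%.

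Each library had as many barcodes again that it did not use, and transcripts counted in them give the makeup of a background. They came to 104967 over the 24 libraries, of which 91 were *icn* (867 CPM) and 24 were *s100a10b* (229 CPM). *icn* was lower than that in B cell-like (144 CPM), T cell-like (163), progenitor-like (182.4), kidney tubule-like (136) and erythroid-like cells (538). *s100a10b* was lower than its value there in the same classes (0 to 74 CPM). Being scaled to their own transcripts, the unused barcodes do not give the amount that a cell receives. In counts, 96 erythroid-like cells held 676 *icn* transcripts, 63 progenitor-like cells 101 and 41 B cell-like cells 17. How much of these levels is background was not tested.

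Genotypes were then compared over libraries, first with the transcripts of all cells of a library summed and then with those of neutrophil-like cells, the class with at least 12 cells in every library. edgeR's quasi-likelihood test was fitted to all genes with enough counts, p-values were adjusted by the Benjamini-Hochberg method over all of them, and a gene counts as called below 0.05. In sums over all cells, a change in how many cells of a class were present and a change of the level inside a cell cannot be told apart. Of the 32 members 12 had enough counts for the test over all cells and 10 for that in neutrophil-like cells; a member can enter through the genotype in which it is high, so these counts describe the members tested and not the families. Both mutants were compared with the same wild-type libraries.

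**Figure D3:**
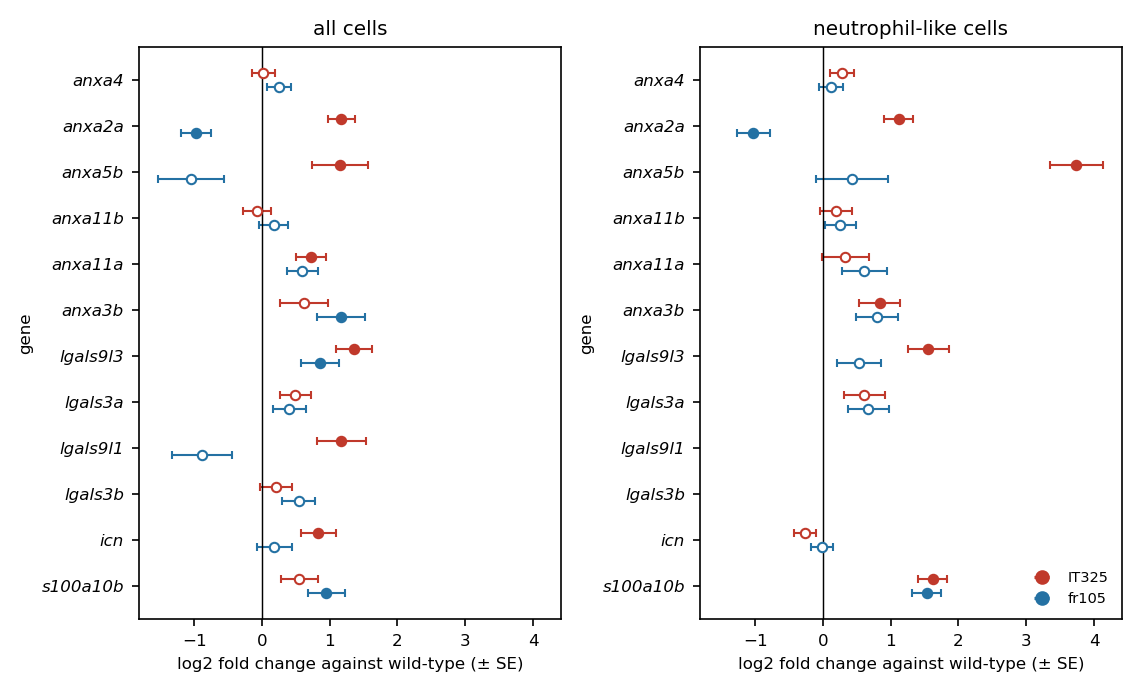
log2 fold change against wild-type (x axis, ± SE, edgeR) of the members tested, for IT325 (red) and fr105 (blue), over all cells (left) and in neutrophil-like cells (right, 10 members tested); filled points have an adjusted p below 0.05. anxa2a lies to the right of 0 in IT325 and to the left in fr105 in both panels, and s100a10b lies to the right for both mutants in neutrophil-like cells.

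Over all cells, 6 of 12 members tested were called in IT325 against wild-type, all of them higher and none lower (*anxa2a*, *anxa5b*, *anxa11a*, *lgals9l1*, *lgals9l3* and *icn*); 21.8% of the 3296 genes tested were called, 11.5% as higher and 10.3% as lower. The members' median log2 fold change was 0.68, against 0.00 for all genes tested. In fr105 against wild-type 4 of 12 were called, *anxa3b*, *lgals9l3* and *s100a10b* as higher and *anxa2a* as lower, where 23.9% of all genes were called (11.6% higher, 12.3% lower); the medians were 0.33 and 0.02. Between the mutants 3 of 12 were called, *anxa2a*, *anxa5b* and *lgals9l1*, all lower in fr105, where 28.7% of all genes were called (15.3% higher, 13.4% lower); the medians were -0.11 and -0.03. The last count is close to the share of all genes.

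In neutrophil-like cells 5 of 10 members tested were called in IT325 against wild-type, all higher (*anxa2a*, *anxa3b*, *anxa5b*, *lgals9l3* and *s100a10b*), where 33.2% of the 1963 genes tested were called (16.8% higher, 16.5% lower). The members' median log2 fold change was 0.72, against 0.02 for all genes. *anxa5b*, which is in these counts, entered the test through the IT325 libraries, where it was high. In fr105 against wild-type 2 of 10 were called, *s100a10b* as higher and *anxa2a* as lower, against 17.8% of all genes (9.53% higher, 8.3% lower), with medians of 0.48 and 0.00. Between the mutants 3 of 10 were called, *anxa2a*, *anxa5b* and *lgals9l3*, all lower in fr105, against 25.9% of all genes (14.3% higher, 11.6% lower), with medians of -0.06 and -0.04. The genotypes fill the 4 neutrophil-like clusters unequally. Cluster 0 has 91 wild-type, 18 IT325 and 115 fr105 cells, cluster 1 has 75, 0 and 48, cluster 2 has 1, 89 and 5, and cluster 3, led by *lyz*, *mpx* and the division gene *mki67*, has 29, 26 and 18. Most IT325 neutrophil-like cells therefore lie in a cluster that the other genotypes barely enter, and called differences are given again for clusters 0 and 3 alone (21 libraries with at least 5 such cells, of which 5 are IT325), an alternative chosen after seeing the data.

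**Figure D4:**
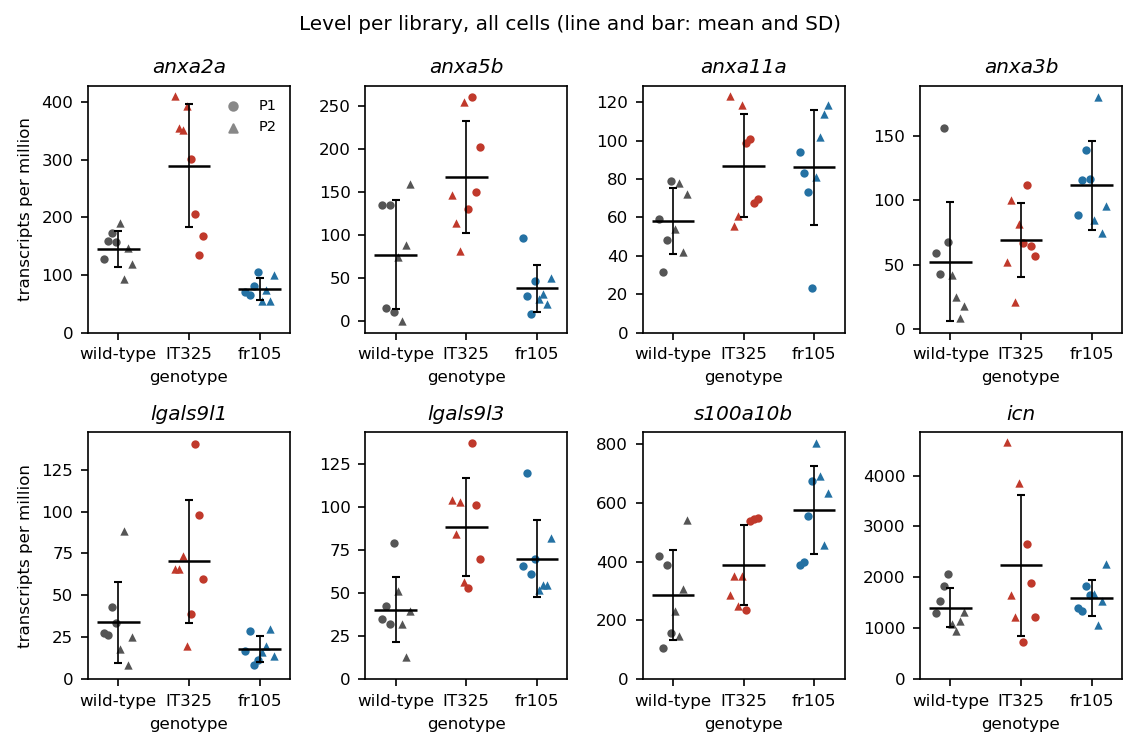
CPM in each of the 24 libraries (points; circles P1, triangles P2) over all cells, for 8 members, by genotype; line and bar give the mean and SD of 8 libraries. For anxa2a no IT325 library overlaps an fr105 library, and for icn 3 IT325 libraries lie above all wild-type and fr105 libraries.

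*anxa2a* moved in opposite directions in the mutants. Annexin A2 links membranes to actin and, on the cell surface of mammals, serves as a receptor for plasminogen. Over all cells its level was 92.1 to 189 CPM in wild-type libraries (median 152), 135 to 409.7 in IT325 (median 326) and 54.4 to 104 in fr105 (median 72.7). The IT325 and fr105 libraries did not overlap, which held for 1 of 12 members and 5.95% of all genes tested. The wild-type libraries overlapped with both; no member separated IT325 from wild-type (5.25% of all genes did) or fr105 from wild-type (4.49%) over all cells. Against wild-type, *anxa2a* was 2.25-fold higher in IT325 (edgeR log2 fold change 1.17, SE 0.20, adjusted p = 6.7e-05), whereas it was 1.96-fold lower in fr105 (-0.97 ± 0.22, adjusted p = 0.00206). It was 4.41-fold lower in fr105 than in IT325 (adjusted p = 1e-08).

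The IT325 difference was larger in the P2 libraries. Their *anxa2a* levels were 350.4 to 409.7 CPM, and those of the P1 libraries 135 to 301, while wild-type libraries lay at 128 to 172 in P1 and 92.1 to 189 in P2. Within P1 the log2 fold change was 0.56 ± 0.23 (edgeR adjusted p = 0.12) and within P2 it was 1.61 ± 0.22 (adjusted p = 0.000105). The interaction itself had an unadjusted p of 0.0018 and an adjusted p of 0.51. The fr105 difference was -0.94 within P1 and -1.02 within P2, and passed the threshold in each.

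In neutrophil-like cells, which held 71.0% of its transcripts, *anxa2a* showed the same order. Levels were 188 to 265 CPM in wild-type (median 235), 235 to 938 in IT325 (median 409) and 73.4 to 153 in fr105 (median 111). All fr105 libraries lay below all wild-type and all IT325 libraries, while wild-type and IT325 overlapped. Libraries of fr105 and wild-type were separate, in either direction, for 2 of 10 members and 4.99% of all genes tested, and those of fr105 and IT325 for 2 of 10 members and 4.89% of all genes. The log2 fold change was 1.12 ± 0.22 in IT325 (edgeR adjusted p = 0.00013) and -1.02 ± 0.24 in fr105 (adjusted p = 0.0022). Within P1 the IT325 difference was 0.45 ± 0.27 and did not pass the threshold (adjusted p = 0.24). With classes set per cell, without clusters, neither call held (0.33 ± 0.44, adjusted p = 0.69, in IT325 and -1.19 ± 0.45, adjusted p = 0.12, in fr105). In clusters 0 and 3 alone the value was 1.31 ± 0.33 (adjusted p = 0.0039) in IT325 and -0.90 ± 0.33 (adjusted p = 0.064) in fr105. The highest IT325 values rest in part on single cells: 115 of the 292 *anxa2a* transcripts of IT325 cells in cluster 3 were in 1 cell.

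Erythroid markers moved with genotype in these cells. Over the 10 markers the summed level in neutrophil-like cells was 1751 to 4775 CPM in IT325 libraries, 125.5 to 789.8 in wild-type and 88.0 to 631 in fr105; *slc25a37* was at 0 in both mutants. *anxa2a* stood at 480 CPM in IT325 neutrophil-like cells and at 179 in IT325 erythroid-like cells. Over the 9 macrophage markers the ranges overlapped, with 47.1 to 1001 CPM in wild-type, 152 to 1366 in IT325 and 211 to 608 in fr105, and *c1qc* was at 0 in wild-type. Of the 9, *cd74a* was highest, at 201, 234 and 223 CPM in wild-type, IT325 and fr105. *c1qb* stood at 11.9, 43.8 and 44.3, and *c1qa* at 6.51, 6.26 and 5.63. At the finer clustering, a neutrophil-like cluster of 54 cells, 49 of them IT325, passed 14 neutrophil and 7 macrophage markers. With the members used in clustering, a cluster of 56 cells, 50 of them IT325, did the same. In the main clustering, the cluster with 89 IT325 cells passed 3 macrophage markers. The part of either list in the differences was not tested.

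Outside the neutrophil-like cells *anxa2a* was present in IT325 where wild-type cells hardly had it. In progenitor-like cells 104 transcripts were counted in 30 IT325 cells (356 CPM, Poisson 95% interval 291 to 431), 1 in 20 wild-type cells (0.159 to 34.9 CPM) and 0 in 13 fr105 cells, which allows up to 29.4 CPM. The 104 transcripts were in 8 cells. In the erythroid-like cluster 8, led by *slc4a1a* and globin genes, 148 were counted in 24 IT325 cells (273 CPM, 231 to 321), 11 of which held them, and 1 in 17 wild-type cells. In the other erythroid-like cluster, 6, the IT325 level was 13.1 CPM, with 4 transcripts in 38 cells. In macrophage-like cells the wild-type and IT325 intervals overlapped, at 259 (197 to 335) and 273 (202 to 360) CPM, while 17 fr105 cells had 1 transcript (0.223 to 49.1). These are pooled counts, and no test over libraries was run.

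*anxa5b* had the largest log2 fold change among the members tested, in neutrophil-like cells. There the wild-type libraries had 0 to 49.2 CPM (median 16.6), the fr105 libraries 0 to 67.2 (median 30.2) and the IT325 libraries 189 to 326 (median 249). Every IT325 library lay above every library of the other genotypes; libraries of IT325 and wild-type were separate for 2 of 10 members and 7.59% of all genes tested. In transcripts, 313 were counted in IT325, 17 in wild-type and 31 in fr105. The log2 fold change was 3.74 ± 0.39 in IT325 against wild-type (13.3-fold, edgeR adjusted p = 1.3e-09) and -3.30 ± 0.35 in fr105 against IT325 (adjusted p = 2.5e-09). In fr105 against wild-type it was 0.43, with a 95% interval of -0.60 to 1.47 (adjusted p = 0.65). *anxa5b* had enough counts for this test through its IT325 libraries, since no other library exceeded 67.2 CPM. Its p-values against IT325 and its place among the members called or separate are therefore a description only.

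The IT325 values were also high in clusters 0 and 3. In cluster 2 IT325 cells had 319 CPM, in cluster 3 they had 168 against 31.9 in wild-type and 4.44 in fr105, and in cluster 0 they had 89.4 against 6.34 and 33.6. With clusters 0 and 3 alone the log2 fold change was 3.35 ± 0.61 (edgeR adjusted p = 0.00012) against wild-type, and within P1 and P2 it was 3.31 and 4.17.

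Over all cells the groups overlapped for *anxa5b*. Wild-type libraries had 0 to 159 CPM (median 81.6), IT325 libraries 81.7 to 259.7 (median 148) and fr105 libraries 8.16 to 96.9 (median 30.1). The log2 fold change in IT325 against wild-type was 1.15 ± 0.41 (edgeR adjusted p = 0.045). That call is lost in 17 of 28 alternatives. The value was 1.28 within P1 (adjusted p = 0.12), 1.00 within P2 (adjusted p = 0.29), 1.30 for IT325 libraries of P1 against all wild-type libraries (adjusted p = 0.090) and 1.01 in cells with at least 3000 transcripts (adjusted p = 0.11). It is also lost by DESeq2 (adjusted p = 0.083) and with the replicate block (1.04, edgeR adjusted p = 0.26). That block goes by replicate number, so it leaves IT325 replicates 9 to 12 out of the contrast. It sets IT325 libraries of P2 beside wild-type libraries of P1. The call is lost as well when 1 of 11 libraries is left out (wild-type replicates 2, 4, 5, 6 and 7, IT325 replicates 1, 4, 9, 10, 11 and 12), with edgeR adjusted p-values from 0.0501 to 0.0928. Macrophage-like cells weigh heavily here: a wild-type library had 1 to 6 of them, and in IT325 and fr105 5 of 8 libraries had any. In them *anxa5b* stood at 572 CPM in wild-type (477 to 680), 651 in IT325 (538 to 780) and 211 in fr105 (135 to 315). Of IT325, 12 cells had this class here and only 3 in either alternative clustering. Without macrophage-like cells, an alternative added after seeing the data, the log2 fold change was 2.97 ± 0.47 (adjusted p = 1.6e-05). In fr105 against wild-type it was -1.05 ± 0.49 (adjusted p = 0.12), and it passed the threshold without wild-type replicate 6 (-1.27, adjusted p = 0.030) or without fr105 replicate 1 (-1.52, adjusted p = 0.029). Without macrophage-like cells it was 0.62 ± 0.56 (adjusted p = 0.46), of the other sign. Between fr105 and IT325 the log2 fold change was -2.20 ± 0.45 (adjusted p = 0.00071).

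**Figure D5:**
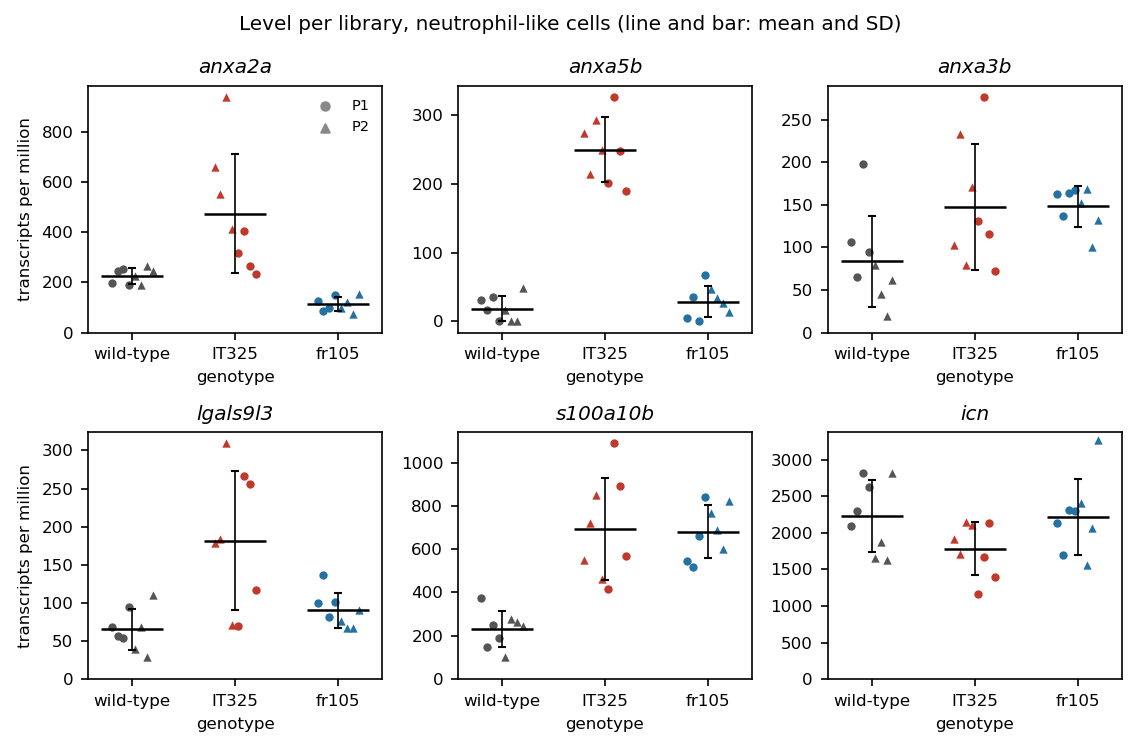
CPM in the neutrophil-like cells of each of the 24 libraries (points; circles P1, triangles P2), for 6 members, by genotype; line and bar give the mean and SD of 8 libraries. For anxa5b all IT325 libraries lie at 189 to 326, above every other library, and for s100a10b both mutants lie above wild-type.

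*anxa3b* was higher in fr105 over all cells. Levels were 8.38 to 156 CPM in wild-type (median 42.2), 20.9 to 112 in IT325 (median 65.4) and 74.2 to 180.0 in fr105 (median 106). Wild-type overlaps fr105 only through wild-type replicate 3, at 156, since the next wild-type library has 67.5. IT325 overlaps both other genotypes. The log2 fold change in fr105 was 1.17 ± 0.35 (edgeR adjusted p = 0.016). It was 0.53 within P1 (adjusted p = 0.45) and 2.08 within P2 (adjusted p = 0.0059). In IT325 it was 0.63 ± 0.35 (adjusted p = 0.21), and 1.06 without wild-type replicate 3 (adjusted p = 0.021).

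In neutrophil-like cells *anxa3b* had 19.6 to 198 CPM in wild-type (median 72.0), 71.8 to 277 in IT325 (median 123) and 100.1 to 169 in fr105 (median 158). All groups overlap. The IT325 difference was called (log2 fold change 0.84 ± 0.31, edgeR adjusted p = 0.033) and the fr105 difference was not (0.80 ± 0.30, adjusted p = 0.067), although the values are alike; between the mutants the difference was -0.04 (95% interval -0.58 to 0.50). The IT325 call is lost without wild-type replicates 2, 6, 7 or 8 or IT325 replicates 2, 4 or 10 (edgeR adjusted p 0.0546 to 0.0890). It is also lost within P1, in cells with at least 3000 transcripts, with classes set per cell and with the members used in clustering. In all, 13 of 30 alternatives lost it and 1 turned its sign. The fr105 difference passes without wild-type replicate 3 (1.11, edgeR adjusted p = 0.0068). In clusters 0 and 3 alone the IT325 value was -0.22 ± 0.46 (adjusted p = 0.76). In cluster 3 *anxa3b* stood at 55.3 CPM in IT325 and 95.7 in wild-type, and its IT325 level was highest in cluster 2.

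*anxa4*, known from mammalian epithelia, and *anxa11b* were called in none of the 6 comparisons. Over all cells *anxa4* had a median of 203 CPM in wild-type libraries, 178 in those of IT325 and 232 in those of fr105, and the 95% intervals of its log2 fold changes were -0.32 to 0.36 in IT325 and -0.08 to 0.60 in fr105. For *anxa11b* the medians were 90.0, 73.7 and 99.2, and the intervals -0.49 to 0.34 and -0.25 to 0.60. *anxa11a* was called over all cells in IT325, with 31.8 to 78.8 CPM in wild-type (median 56.5) and 55.4 to 123 in IT325 (median 84.0), ranges that overlap (log2 fold change 0.72 ± 0.22, edgeR adjusted p = 0.020). Without the jac7/lad1 cluster its IT325 range was 38.6 to 97.0 and the log2 fold change 0.33 ± 0.22 (edgeR adjusted p = 0.30), an alternative added after seeing the data. Without IT325 replicate 1 the edgeR adjusted p was 0.054. In all, 8 of 28 alternatives lost the IT325 call, among them P1 alone, P2 alone and cells with at least 3000 transcripts. In fr105 *anxa11a* had 23.2 to 118.5 CPM (median 88.6, log2 fold change 0.60, adjusted p = 0.059). That difference passed the threshold without wild-type replicate 6 (adjusted p = 0.042) or without fr105 replicate 4, the lowest library (adjusted p = 0.021).

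Of the 11 galectin genes 6 reached 20 transcripts, and 3 are named here. *lgals9l1* (ENSDARG00000025903) and *lgals9l3* (ENSDARG00000041060) belong to the galectin-9 group, whose mammalian member carries a pair of sugar-binding domains, and lie next to each other and to *lgals9l4*, *lgals9l5* and *lgals9l6* in the RefSeq annotation of the assembly GRCz12tu. Reads that fitted more than 1 locus had been discarded, so neighbours of like sequence may each be undercounted. *lgals9l4* and *lgals9l6* had 1 and 2 transcripts.

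Over all cells *lgals9l3* had 12.6 to 78.8 CPM in wild-type (median 37.2), 52.7 to 137.01 in IT325 (median 92.8) and 51.9 to 119.6 in fr105 (median 63.3). The ranges overlap, with both mutants above wild-type in median. It was 2.57-fold higher in IT325 (log2 fold change 1.36 ± 0.26, edgeR adjusted p = 0.00031) and 1.81-fold higher in fr105 (0.85 ± 0.28, adjusted p = 0.026). Within P1 and P2 the IT325 values were 1.21 (adjusted p = 0.051) and 1.49 (adjusted p = 0.0087), and the fr105 values of 0.94 and 0.72 did not pass in either (adjusted p = 0.20 and 0.19). The fr105 call was lost without macrophage-like cells (0.72, adjusted p = 0.062) and without wild-type replicates 6 or 7 or fr105 replicate 2 (adjusted p 0.0501 to 0.0845). Between the mutants the difference of -0.51 was not called (adjusted p = 0.12), but passed without fr105 replicate 2 (-0.69, adjusted p = 0.036).

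In neutrophil-like cells *lgals9l3* had 29.5 to 111 CPM in wild-type (median 62.3), 70.1 to 309.5 in IT325 (median 181) and 66.7 to 136.8 in fr105 (median 86.2). It was higher in IT325 than in wild-type (log2 fold change 1.55 ± 0.30, edgeR adjusted p = 0.00013) and lower in fr105 than in IT325 (-1.02 ± 0.27, adjusted p = 0.0056). In clusters 0 and 3 alone these values were 0.79 ± 0.47 (adjusted p = 0.22) and 0.10 ± 0.42 (adjusted p = 0.87). The IT325 level was 249 CPM in cluster 2, 145 in cluster 0 and 59.4 in cluster 3.

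*lgals9l1* set the mutants apart. Over all cells it had 8.38 to 88.6 CPM in wild-type (median 27.1), 19.7 to 141 in IT325 (median 65.7) and 8.16 to 29.7 in fr105 (median 16.6). It was 2.25-fold higher in IT325 than in wild-type (log2 fold change 1.17 ± 0.36, edgeR adjusted p = 0.019) and 4.17-fold lower in fr105 than in IT325 (-2.06 ± 0.39, adjusted p = 0.00033). The first of these was lost without IT325 replicate 10 (0.98, adjusted p = 0.052) and within P2 (0.84, adjusted p = 0.37), and held within P1 (1.51, adjusted p = 0.034). Its IT325 transcripts came mainly from cluster 2, where 165 were counted (236 CPM, 201 to 274), against 6 in cluster 3 (12.3, 4.51 to 26.7). It did not have enough counts for the test in neutrophil-like cells. Its IT325 libraries lay there at 35.6 to 297 CPM and its fr105 libraries at 10.9 to 33.4. Wild-type libraries, at 19.6 to 158, overlapped with both. Of all genes tested in these cells, 4.89% had separate fr105 and IT325 libraries.

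*lgals3a* (ENSDARG00000077850), of the galectin-3 group known from mammalian macrophages, had 77.8 CPM in neutrophil-like cells and 76.3 in B cell-like cells, with overlapping intervals (68.8 to 87.7 and 34.9 to 145). In macrophage-like cells it had 32.9 CPM (19.1 to 52.6). It was called in none of the 6 comparisons. Over all cells its median was 52.7 CPM in wild-type libraries, 59.4 in those of IT325 and 63.2 in those of fr105. In neutrophil-like cells they were 59.5, 73.0 and 85.1, and the log2 fold changes were 0.61 ± 0.30 and 0.67 ± 0.30 (edgeR adjusted p = 0.12 and 0.13). In clusters 0 and 3 alone the IT325 value passed the threshold (1.09 ± 0.35, adjusted p = 0.022).

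*s100a10b*, the partner of annexin A2 in mammals, rose in the neutrophil-like cells of both mutants. Levels there were 102 to 374 CPM in wild-type (median 249), 417 to 1089.5 in IT325 (median 645) and 517 to 839.8 in fr105 (median 676). All libraries of each mutant lay above all wild-type libraries. The log2 fold change was 1.62 ± 0.21 in IT325 (3.07-fold, edgeR adjusted p = 1.9e-07) and 1.53 ± 0.21 in fr105 (2.89-fold, adjusted p = 8.8e-07). Between the mutants it was -0.09, with a 95% interval of -0.46 to 0.29.

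The clusters behind these values differ. In the neutrophil-like clusters other than 2, which has 1 wild-type cell, *s100a10b* was higher in fr105 than in wild-type. It stood at 698 against 197 CPM in cluster 0, 626 against 289 in cluster 1 and 510 against 198 in cluster 3. In IT325 it reached 998 in cluster 2 and 570 in cluster 0, but 156 (123 to 195) in cluster 3, where wild-type cells had 198 (152 to 254). In clusters 0 and 3 alone the log2 fold change was 1.71 ± 0.34 in fr105 (edgeR adjusted p = 0.00054) and 0.55 ± 0.41 in IT325 (adjusted p = 0.33), and the mutants then differed by 1.15 ± 0.39 (adjusted p = 0.027). The IT325 call was also lost with classes set per cell. The fr105 call held in all 30 alternatives. In fr105 neutrophil-like cells *s100a10b* was thus higher and *anxa2a* lower than in wild-type.

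Over all cells *s100a10b* had 106 to 541 CPM in wild-type (median 269), 236 to 548 in IT325 (median 351) and 390.0 to 804 in fr105 (median 595), and all groups overlap. fr105 was called (log2 fold change 0.95 ± 0.28, edgeR adjusted p = 0.012) and IT325 was not (0.55 ± 0.27, adjusted p = 0.14). The fr105 value was 0.88 within P1 (adjusted p = 0.20) and 1.01 within P2 (adjusted p = 0.035). Macrophage-like cells, the class richest in it, had 1509.9 CPM in wild-type (1353 to 1680), 1168 in IT325 (1015 to 1337) and 529 in fr105 (403 to 680). Without them the log2 fold changes were 1.98 ± 0.22 in fr105 (adjusted p = 8.5e-08) and 1.39 ± 0.22 in IT325 (adjusted p = 1.9e-05). The IT325 difference also passed without wild-type replicate 8 (0.76, adjusted p = 0.039). A further 201 *s100a10b* transcripts were in 7 fr105 cells of the unnamed cluster 16, which has several mfap4 genes among its leading genes (1770.5 CPM, 1534 to 2033).

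*icn* was the most abundant member in every genotype, and its one call rested on few cells. Over all cells wild-type libraries had 939.8 to 2063 CPM (median 1308), IT325 libraries 730.4 to 4651 (median 1772) and fr105 libraries 1063 to 2263 (median 1595). The ranges overlap, and 3 IT325 libraries, replicates 1 and 4 of P2 and 10 of P1, exceed every wild-type and fr105 library. The IT325 difference was called (log2 fold change 0.83 ± 0.26, edgeR adjusted p = 0.022). Without the 16 cells of the jac7/lad1 cluster, an alternative added after seeing the data, the IT325 range was 683 to 1455 (median 1052) and the log2 fold change was -0.16 ± 0.17 (adjusted p = 0.54). The call was also lost without IT325 replicate 1 (0.59, adjusted p = 0.085) or replicate 4 (0.70, edgeR adjusted p = 0.058), both of P2. It was 0.14 ± 0.29 within P1 and 1.45 ± 0.33 within P2, and the edgeR interaction had an adjusted p of 0.57.

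Inside neutrophil-like cells the genotypes overlapped for *icn*. Levels were 1623 to 2823 CPM in wild-type (median 2199.9), 1166 to 2148 in IT325 (median 1817) and 1566 to 3267 in fr105 (median 2218). The log2 fold changes of -0.27 (95% interval -0.58 to 0.04) in IT325 and -0.01 (-0.32 to 0.30) in fr105 were not called. Within P1 alone the IT325 value was -0.62 ± 0.19 (edgeR adjusted p = 0.018). In erythroid-like cells *icn* was counted 609 times in 62 IT325 cells (718 CPM, 662 to 777) and 24 times in 27 wild-type cells (71.8, 46.03 to 107). The barcodes not used, scaled to their own transcripts, had 1031 CPM in IT325 libraries and 789 in wild-type. Between the mutants the all-cell difference of -0.65 was not called (adjusted p = 0.062); it passed without IT325 replicates 3, 9 or 12 or fr105 replicate 8 (adjusted p 0.0137 to 0.0459) and by DESeq2 (adjusted p = 0.041). Without the *jac7*/*lad1* cluster it was of the other sign, at 0.33 ± 0.17 (adjusted p = 0.16). In the genome *icn* and *s100a10b* are neighbours: RefSeq's GRCz12tu annotation lists *s100a10b*, *s100w*, *icn* and *icn2* beside each other. *s100w* and *icn2* were not analysed here.

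Of the remaining members, 3 had patterns by class and genotype that rest on few transcripts, and they were chosen after their values were seen. *anxa1a* in macrophage-like cells had 87 transcripts in 23 wild-type cells (389 CPM, 311 to 479), 15 in 12 IT325 cells (83.4, 46.7 to 138) and 2 in 17 fr105 cells (17.6, 2.13 to 63.6). *lgals2a* in the same cells had 223 CPM in wild-type (166 to 294), 44.5 in IT325 (19.2 to 87.7) and 176 in fr105 (108 to 272). For *anxa1a*, *anxa2a*, *anxa5b* and *s100a10b* the counting intervals of fr105 lay below those of wild-type in macrophage-like cells, and for *lgals2a* they overlapped. How many of all genes do the same in this class was not counted, so this is no result about the members. The intervals cover counting error over pooled cells, which are not replicates. *s100t* had 17 of its 26 transcripts in 3 progenitor-like cells of fr105 and 0 in the 50 progenitor-like cells of wild-type and IT325. No test over libraries was run for these classes.

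No member was called for a difference between P1 and P2 in either mutant's effect (edgeR, 12 members tested, adjusted over all 3296 genes, of which 0 were called for IT325 and 31 for fr105). At an unadjusted p below 0.05 there were 3 for IT325 (*anxa2a*, *icn* and *anxa3b*) and 1 for fr105 (*anxa3b*). DESeq2 was not run for the interaction.

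Genes that work with these families were read from the same fit: calcium sensors, calpains and copines on the one hand, and known partners of annexins, S100 proteins and galectins on the other. Of 41 that had a row, 21 had enough counts over all cells. In IT325 against wild-type 4 were called as higher and 2 as lower, where 21.8% of all genes were called. In fr105 it was 1 as higher and 3 as lower (23.9% of all genes), and in fr105 against IT325 2 as higher and 5 as lower (28.7%). The median log2 fold changes of the 21 genes were 0.13, -0.02 and -0.13, against 0.00, 0.02 and -0.03 for all genes. *ahnak*, the giant scaffold that binds S100A10 and annexin A2 in mammals, rose in both mutants, by 1.30 ± 0.18 in IT325 (edgeR adjusted p = 2.3e-06) and 1.36 ± 0.18 in fr105 (adjusted p = 2.2e-06). *capns1b*, a regulatory subunit of calpain, rose in IT325 (1.19 ± 0.22, adjusted p = 0.00015) and was lower in fr105 than in IT325 (-1.71 ± 0.23, adjusted p = 2.4e-06). Of the cell-surface glycoproteins that galectins can bind, *cd44b* fell in IT325 (-1.52 ± 0.30, adjusted p = 0.00042) and in fr105 (-1.17 ± 0.31, adjusted p = 0.0062). Another, *itgb1a*, an integrin subunit, fell in fr105 (-2.74 ± 0.54, adjusted p = 0.00048) and was lower there than in IT325 (-2.54 ± 0.54, adjusted p = 0.00093). The calmodulin gene *calm1b* fell in fr105 by 2.33 on the log2 scale (adjusted p = 4.5e-06) and differed from IT325 by -2.46 ± 0.32 (adjusted p = 1.3e-06).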

How the data were processed

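The libraries are plate-based mCEL-Seq2, a 3′ method with molecular identifiers, on marrow cells sorted on light scatter. Per the study's methods the authors aligned reads to zebrafish gene models with extended 3′ ends, counted the sense strand and discarded reads with more than 1 locus; the submitters' processing notes name BWA 0.6.2-r126 and bcl2fastq 2.17.1.14. The deposited values are estimated counts (expected counts) of transcripts per gene and barcode: the authors corrected the number of distinct identifiers for repeats among the 4096 possible ones. Every file has the same 192 barcodes, of which the fuller 96 were used, and cells needed 1500 transcripts.

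Cells were clustered without the members (2000 variable genes, 30 principal components, 15 neighbours, Leiden resolution 1; Python 3.11.15, scikit-learn 1.9.0, leidenalg 0.10.2). A cluster took a class name when at least 3 and 50% of that class's markers passed (10% of cells, 2-fold over the cluster median), 1.5 times as many as for the next class. The cluster led by *jac7* and *lad1* met this for erythroid cells but was left unnamed because of its leading genes, a choice made after its values were seen. The same condition was not applied to the other clusters. Doublets were not called.

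Transcripts were summed per library and rounded, and tested with edgeR 4.0.16 (R 4.3.3; filterByExpr, TMM, quasi-likelihood, 24 libraries in one fit, Benjamini-Hochberg, threshold 0.05). The script was tested on simulated data. Standard errors were derived from the F statistic, and 95% intervals of fold changes are normal ones from it. Alternatives were DESeq2 1.42.0, median-ratio scaling, no filter, other minima of transcripts and cells, thinning, other classes, each set, and each library left out. Poisson intervals and limits from a count of 0 (3 counts) cover counting error only. Libraries of a genotype may have shared a lane, so lane and genotype may coincide. Members named are those called in any comparison, the 10 highest in mean level, and the highest of each class. The members, lists and tests were chosen with earlier results of these data known.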

Additional observations from a re-analysis of the deposited data

Results flagged for a closer look

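Of 66 groups of 8 libraries checked (11 named members, 3 genotypes, 2 kinds of sum), 7 had a library far from the others. For independent values with a normal spread, chance gives about 1 in 20 groups. The neutrophil-like sums are part of the all-cell sums, so this rate is only a rough guide here. Over all cells, wild-type replicate 3 stood at 156 CPM for *anxa3b*, with the next library at 67.5. Wild-type replicate 6 stood at 88.6 for *lgals9l1*, with the next at 43.0, and at 158 in neutrophil-like cells, with the next at 54.0. In fr105, replicate 1 was highest for *anxa5b* at 96.9 (next 50.1), replicate 2 for *lgals9l3* at 119.6 (next 82.0) and replicate 4 for *anxa11b* at 163 (next 108.8). The same replicate 4 was lowest for *anxa11a* at 23.2, with the next library at 73.4.

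In barcodes that the libraries did not use, which no comparison includes, 180 transcripts of members were counted, and 91 of these were *icn*.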

How the results depend on the processing

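The 23 called differences were recomputed under 657 alternatives in all: 587 kept the call, 66 lost it and 4 turned in sign, and 8 of the differences were called in every alternative run. Of 1143 alternatives for the 40 differences not called, 31 passed the threshold.

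Of called differences, *icn* in IT325 against wild-type over all cells turned sign (-0.0685 without kidney tubule-like and unnamed cells, -0.16 without the *jac7* cluster). In the shared clusters of neutrophil-like cells, *anxa3b* turned in IT325 against wild-type (-0.22) and *lgals9l3* between the mutants (0.10). Some differences not called also turned. Between the mutants, *s100a10b* in neutrophil-like cells reached 0.91 with classes set per cell and 1.15 in the shared clusters. Over all cells, *icn* between the mutants reached 0.34 and *anxa5b* in fr105 against wild-type 0.62. The causes were not tested.

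Counts of members called over all cells moved as follows. In IT325 against wild-type, 6 became 3 with cells thinned (4 tested), 1 in P1, 3 in P2 and 3 to 7 with single libraries left out (3 without IT325 replicate 1). In fr105 against wild-type, 4 became 9 without a filter (31 tested), 2 with thinning and 1 in P1. Between the mutants, 3 became 5 without a filter and 5 with the replicate block. In neutrophil-like cells, the count of 5 in IT325 became 1 with thinning (3 tested), 1 with classes set per cell and 3 in the shared clusters. The count of 2 in fr105 became 1 with thinning, 4 in P2, 1 with classes set per cell and 1 in the shared clusters. The count of 3 between the mutants became 0 with thinning (edgeR, 3 tested). Leaving out single libraries gave 3 to 5, 3 to 4, 4 to 6, 2 to 3 and 3 to 4 in the other 5 comparisons, in this order. The replicate numbers do not pair the libraries (correlations of -0.148 to 0.111). In fits with the block, IT325 replicates 9 to 12 share a number with no other library and drop out of the contrasts. IT325 replicates 1 to 4, of P2, are then set beside P1 libraries of the other genotypes. The block is therefore a weak check for IT325. Over all genes, 719, 789 and 947 calls became 401, 725 and 694 with the block and 1538, 1549 and 1580 without a filter over all cells, and 652, 350 and 508 became 384, 326 and 276, and 1037, 612 and 694, in neutrophil-like cells; the interaction went from 0 and 31 to 32 and 83 without a filter. Thinned and within-set fits hold fewer transcripts or libraries, and members below the count filter were not tested.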
